A study of Homo sapiens with 6 samples.

Results

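The genes described here encode proteins of the spliceosome and the RNA-binding proteins that guide it. They were chosen by symbol: protein-coding genes named SNRP, LSM, SF3A, SF3B, U2AF, U2SURP, PRPF, HNRNP, PTBP, SRSF, TRA2 or RBM followed by a number, each read from its brightest probeset. Of 14812 genes tested, 98 met the rule. They fell into 12 snRNP protein genes (SNRP and LSM), 4 U2 factor genes (U2AF and U2SURP), 10 PRPF genes, 24 hnRNP genes (HNRNP and PTBP), 12 SR genes (SRSF and TRA2) and 36 RBM genes. A further 34 symbols that fit the rule, among them all 9 SF3A and SF3B genes and 12 of 13 LSM genes, had no named probeset and are not analysed here.

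Total RNA came from C4-2, a human prostate cancer line of LNCaP descent that grows without testicular androgen, kept in medium with hormones. RNA was amplified to cDNA, labelled with biotin and hybridised to 6 Human Gene 2.0 ST arrays. Per the labels, the 3 groups of 2 biological replicates were cells given 1 µM NU7441 for 24 h, cells in which DNA-PKcs was depleted transiently for 96 h by siRNAs to its gene, PRKDC (the knockdown), and control cells given DMSO. NU7441 inhibits the kinase activity of DNA-PKcs, the catalytic subunit of the DNA-PK complex that joins broken DNA ends. The protocol also names a control siRNA pool, and whether the DMSO controls received it is not given in the sources used here, so transfection and depletion cannot be told apart. PRKDC had no named probeset and its depletion is not analysed here. All cells were of 1 line, and the labels give no batch.

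Introns are removed by the spliceosome, which is built from small nuclear ribonucleoprotein particles (snRNPs), each an RNA with a ring of Sm or LSm proteins and a few particle-specific proteins. U1 binds the start of an intron, U2 and the U2AF dimer mark its branch point and end, and the U4/U6 and U5 particles then join before the active site forms. SR proteins generally promote the use of nearby splice sites, hnRNPs coat nascent RNA and often repress them, and many RBM proteins are spliceosome components or regulators of alternative exons. In prostate cancer cells, HNRNPA1, U2AF2 and SRSF1 are known for their part in making a shortened splice form of the androgen receptor. The summarised probeset intensities used here were read as the level of each gene's RNA, and how that RNA was spliced was not tested.

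Promoters of the snRNP protein genes often held a sequence feature that the choice of genes did not use. RefSeq promoter windows (GRCh38.p14, 250 bases before to 50 after the annotated start) were found for 88 of the 98 genes. The motif CCGGAAG, searched on both strands and so also as CTTCCGG, is the core bound by ETS transcription factors. It occurred in 7 of 11 snRNP gene promoters (63.6%), in 25.0% of all 88 promoters and in 15.6% of the 9703 promoters of protein-coding genes tested. The snRNP set was formed by symbol, so its 11 windows include that of LSM12, which is not a subunit of the spliceosomal rings and had no match. The next windows are those of 2 genes that were lower in NU7441 cells and 2 that were higher, to show that the letters occurred on both sides. They run 5′ to 3′ on the strand of the gene, with the motif in capitals.

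SNRPA1, chr15:101295199-101295498, minus strand: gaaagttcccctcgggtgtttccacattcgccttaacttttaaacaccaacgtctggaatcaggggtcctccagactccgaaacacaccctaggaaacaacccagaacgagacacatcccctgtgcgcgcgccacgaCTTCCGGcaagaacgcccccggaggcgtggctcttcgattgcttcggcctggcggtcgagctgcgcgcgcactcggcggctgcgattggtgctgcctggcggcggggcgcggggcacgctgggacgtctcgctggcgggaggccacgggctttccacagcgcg
SNRPB2, chr20:16729776-16730075, plus strand: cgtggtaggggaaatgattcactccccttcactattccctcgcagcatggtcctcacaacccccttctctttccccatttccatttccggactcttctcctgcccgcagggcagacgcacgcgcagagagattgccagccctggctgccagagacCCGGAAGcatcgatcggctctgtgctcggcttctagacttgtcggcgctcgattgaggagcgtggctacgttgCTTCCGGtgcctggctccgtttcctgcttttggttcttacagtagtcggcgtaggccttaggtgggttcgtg
SNRPC, chr6:34757255-34757554, plus strand: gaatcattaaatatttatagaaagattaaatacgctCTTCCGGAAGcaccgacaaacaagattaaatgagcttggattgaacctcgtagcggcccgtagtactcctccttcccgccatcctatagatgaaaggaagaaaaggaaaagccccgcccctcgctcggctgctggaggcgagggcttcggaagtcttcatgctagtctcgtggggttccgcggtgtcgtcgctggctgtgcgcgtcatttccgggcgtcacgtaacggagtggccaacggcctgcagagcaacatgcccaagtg
SNRPD2, chr19:45692267-45692566, minus strand: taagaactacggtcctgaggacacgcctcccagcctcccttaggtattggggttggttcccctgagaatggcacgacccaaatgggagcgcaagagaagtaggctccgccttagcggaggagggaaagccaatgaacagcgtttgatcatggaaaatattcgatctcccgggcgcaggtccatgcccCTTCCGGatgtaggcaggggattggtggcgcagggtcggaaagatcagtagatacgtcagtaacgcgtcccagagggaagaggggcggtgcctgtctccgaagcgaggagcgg

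In the SNRPC window the capitals hold 2 overlapping matches, 1 on each strand, and the SNRPB2 window holds 2 separate ones. CCAAT (both strands, the NFY motif) occurred in 65.2% of 23 hnRNP windows, in 51.1% of the 88 promoters and in 36.2% of the 9703. The GC box GGGCGG (both strands) occurred in 73.9% of the hnRNP windows, in 63.6% of the 88 and in 62.9% of the 9703. These are 3 of 10 motifs searched, chosen after their shares were seen. Of 33 promoters of members lower in NU7441 cells 27.3% held the ETS motif, as did 27.3% of 11 promoters of members that were higher. A match is only a match of letters, and binding was not measured.

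Values are the authors' linear intensities, and differences are log2 fold changes ± SE from limma with n = 2 per group. Adjusted p-values (limma, Benjamini-Hochberg over all 14812 genes, two-sided, threshold 0.05) decide what is written as rose or fell. With 2 arrays per group, p-values rest on a spread that all groups were assumed to share. That spread was unequal: the median SD of log2 values over the 98 genes was 0.158 in NU7441, 0.0915 in knockdown and 0.0793 in control cells, and the replicate arrays correlated at 0.937, 0.970 and 0.988 in the same groups. The arrays' median intensities were 24.6 and 26.0 for NU7441, 28.4 and 27.6 for knockdown and 31.5 and 31.6 for control cells. No value lay below 16. Whether that floor is an added offset, which would shrink fold changes at low intensity, is not given in the sources used here. Of the 98 genes, 88 were brighter than the median of tested genes. In bulk RNA, fewer cells of a type and less RNA per cell cannot be told apart.

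NU7441 cells had lower RNA for many spliceosome genes than control cells and higher RNA for a smaller number. Of the 98 genes 37 fell and 12 rose, and 49 did not pass the threshold. Over all genes tested 22.4% fell and 10.8% rose in the same comparison, and among the 7406 genes brighter than the median 24.0% fell and 20.7% rose. The 98 genes had a median log2 fold change of -0.26, beside -0.23 over all genes tested and -0.052 over the brighter genes. How the members stood to the background depended on what it was. Of the 88 members brighter than the median 39.8% fell and 13.6% rose, a lower share of rises than among all bright genes. Under quantile normalization the median was -0.20 for the 98 genes and 0.050 for all genes. Both NU7441 arrays lay below both control arrays for 51 members and above both for 27, beside 47.3% and 22.7% of all genes.

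By family, U2 factor genes had the lowest median, -1.38, with 3 of 4 lower and 0 higher. snRNP protein genes had a median of -0.46, with 5 of 12 lower and 2 higher. SR genes followed at -0.35, with 6 of 12 lower and 1 higher. hnRNP genes had a median of -0.26, with 10 of 24 lower and 1 higher. RBM genes had a median of -0.12, with 11 of 36 lower and 6 higher, and PRPF genes 0.12, with 2 of 10 on each side. These medians depend on scaling, since centring each array on its median moved the median of all genes to 0.086 and quantile normalization moved it to 0.050, against -0.23 without either. Relative to the median of all genes, the family medians were -1.15 for U2 factors, -0.23 for snRNP proteins, -0.11 for SR, -0.028 for hnRNP, 0.11 for RBM and 0.35 for PRPF genes. Most members were bright, and the median over genes brighter than the median was -0.052. Beside that value the RBM and hnRNP medians of -0.12 and -0.26 both lay lower. The hnRNP median changed sign to 0.058 under median centring, and the RBM median to 0.20 under median centring and 0.039 under quantile normalization, while the other families kept their signs under both. Differences between families were not tested.

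**Figure D1:**
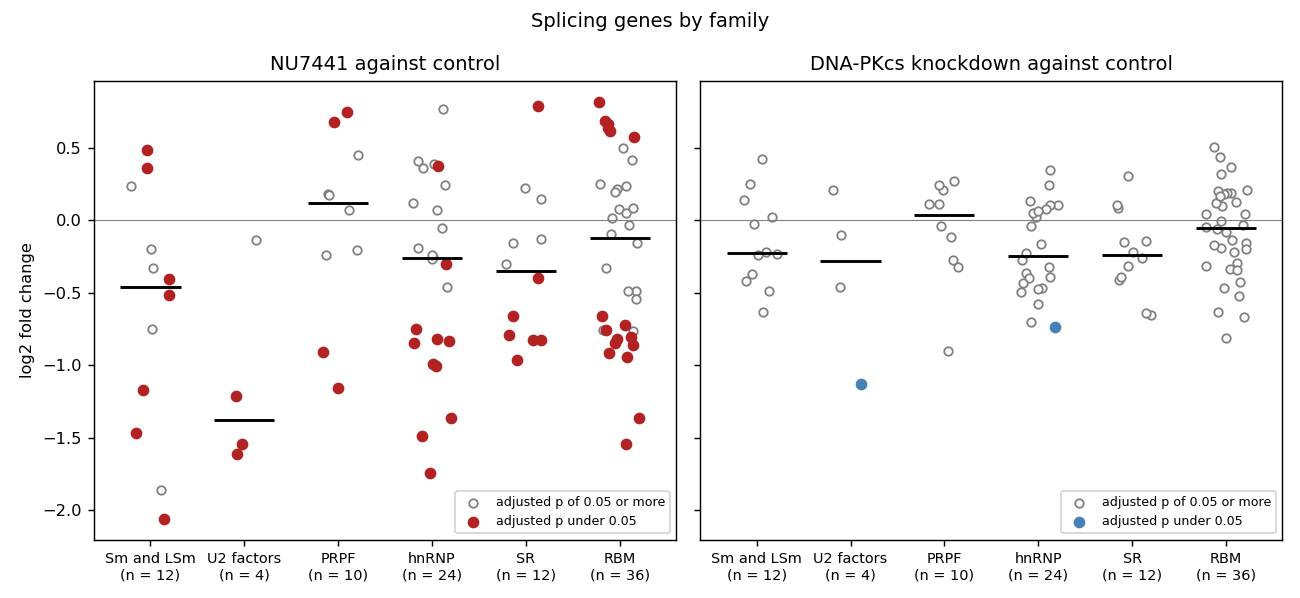
Log2 fold changes of the 98 splicing genes by family, NU7441 against control on the left and DNA-PKcs knockdown against control on the right. Each circle is a gene, filled where its adjusted p is under 0.05, and black bars are family medians; the U2 factors lie lowest on the left with a median of -1.38, and only 2 genes are filled on the right.

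U2AF1, U2AF2 and U2SURP were the 3 of 4 U2 factor genes that fell in NU7441 cells. U2AF1, the small subunit of the U2AF dimer that reads the AG at the 3′ splice site, had intensities of 91.6 and 122 in NU7441 cells, against 321 and 325 in control cells. Its levels were 3.05-fold lower (-1.61 ± 0.18, adjusted p = 0.000796). U2AF2, the large subunit that binds the polypyrimidine tract, had 62.4 and 55.6 in NU7441 cells against 139.6 and 134 in control cells (-1.22 ± 0.19, adjusted p = 0.0027). Both subunits of the dimer thus fell, and the groups did not overlap for either. U2AF1L4, a paralog of the small subunit, was dim and gave 26.6 and 52.5 against 36.6 and 45.8, which overlap (-0.13 ± 0.33, adjusted p = 0.781).

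U2SURP, a U2-associated SR-related protein, had 108 and 166 in NU7441 cells against 387 and 395 in control cells, a fall of 2.92-fold (-1.55 ± 0.21, adjusted p = 0.0014). RBM17, also known as SPF45 and able to bind U2 snRNP proteins, had 188 and 183 against 438 and 519 (-1.36 ± 0.15, adjusted p = 0.000693). These partners of the U2 snRNP fell alongside 2 proteins of the particle itself, while its SF3A and SF3B proteins are not analysed here. SNRPA1, a protein of the U2 snRNP, had 158 and 159 in NU7441 cells against 397 and 486 in control cells (-1.47 ± 0.15, adjusted p = 0.00061). SNRPB2, which binds the U2 RNA together with it, had 145 and 206 against 405 and 376 (-1.17 ± 0.18, adjusted p = 0.00245). Not all factors of this step fell. SF1, which binds the branch point before U2 does, had 172 and 175 in NU7441 cells against 184 and 174 in control cells (-0.044 ± 0.16, adjusted p = 0.854). PUF60, a U2AF-related protein, had 118 and 105 against 89.4 and 85.4 (0.35 ± 0.20, adjusted p = 0.2), and the U2AF-related RBM39, described with the RBM genes, rose. U2AF1, U2SURP, RBM17, SNRPA1 and SNRPB2 passed under all 16 alternative settings as well.

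**Figure D2:**
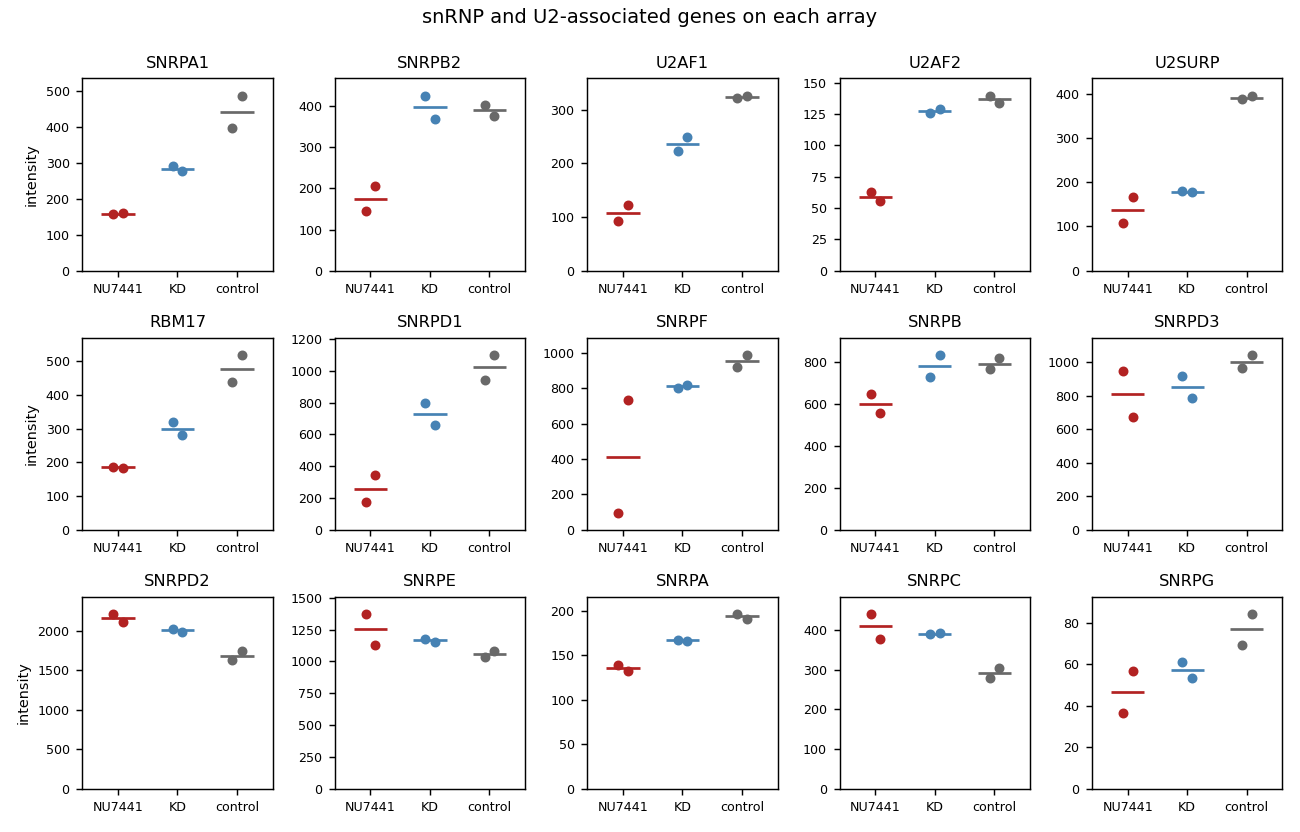
Deposited intensity (linear scale, from 0) of 15 snRNP and U2-associated genes on each of the 6 arrays; KD is the DNA-PKcs knockdown, circles are arrays and bars are the means of 2. U2AF1 lies at 91.6 and 122 in NU7441 cells and 321 and 325 in control cells, while SNRPD2 and SNRPC lie above their controls, and the NU7441 arrays of SNRPF stand far apart.

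The 2 genes for U1-specific proteins that met the rule moved in opposite directions. SNRPA, which binds a stem loop of U1 RNA, had 139 and 132 in NU7441 cells against 196 and 191 in control cells (-0.52 ± 0.16, adjusted p = 0.0374). SNRPC, which helps U1 hold the 5′ splice site, had 439.6 and 378 against 279.7 and 304 and rose by 0.48 ± 0.13 on the log2 scale (adjusted p = 0.0231). The call for SNRPA was lost under median centring. The gene table lists 20 pseudogenes named after SNRPC, and cross-hybridisation to such copies was not tested.

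Within the Sm ring, the 7 genes that encode its subunits did not move as a unit. SNRPD1 had the lowest fold change of all 98 genes, with 174 and 343 in NU7441 cells against 945 and 1099 in control cells, 4.17-fold lower (-2.06 ± 0.26, adjusted p = 0.00118). SNRPD2, which pairs with SNRPD1 during assembly of the ring, had 2209 and 2112 against 1631 and 1739.8 and rose (0.36 ± 0.063, adjusted p = 0.00417). These partners therefore had opposite calls, and neither pair of arrays overlapped its controls. SNRPB fell, with 647 and 556 in NU7441 cells against 771 and 819 in control cells (-0.41 ± 0.11, adjusted p = 0.0246), a call lost under median centring. Its close paralog SNRPN is not analysed here.

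SNRPF had 94.1 and 733 in NU7441 cells against 919.8 and 988 in control cells. Its fold change of -1.86 ± 0.69 was second in size to that of SNRPD1 but did not pass (adjusted p = 0.0634), and without replicate 1 of NU7441 it was -0.38. SNRPG gave -0.75 ± 0.27 (adjusted p = 0.0614), SNRPD3 -0.33 ± 0.15 (adjusted p = 0.119) and SNRPE 0.24 ± 0.10 (adjusted p = 0.089). The SNRPE value depends on the probeset, since the dimmer of its 2 probesets gave -0.22. LSM12, the LSM gene measured here and not a subunit of the spliceosomal rings, gave -0.20 ± 0.15 (adjusted p = 0.32).

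PRPF genes, among them genes for proteins of the U4/U6 and U5 particles and of the Prp19 complex, gave 2 rises and 2 falls. PRPF8, the large U5 protein at the centre of the active site, had 799.6 and 684 in NU7441 cells against 458 and 425 in control cells, 1.68-fold higher (0.74 ± 0.12, adjusted p = 0.00251). PRPF19, the ubiquitin ligase that names the Prp19 complex, had 383 and 344 against 256 and 200.5 and also rose (0.68 ± 0.18, adjusted p = 0.0186). PRPF4 of the U4/U6 particle fell, with 57.4 and 86.7 in NU7441 cells against 160.1 and 154 in control cells (-1.15 ± 0.24, adjusted p = 0.00813). Its binding partner PRPF3 gave 73.2 and 97.6 against 109 and 91.5, which overlap (-0.24 ± 0.23, adjusted p = 0.427). PRPF18, a factor of the second catalytic step, fell by 0.91 on the log2 scale (adjusted p = 0.0212), a call lost under median centring. The 6 others ranged from -0.24 in PRPF3 to 0.45 in PRPF40B, and PRPF6 and PRPF31, proteins of the tri-snRNP, gave -0.21 and 0.18.

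Among the hnRNP genes the falls covered several classes of RNA-binding protein. HNRNPH3, a member of the group that binds runs of G, had 189 and 346 in NU7441 cells against 877 and 839.6 in control cells, 3.35-fold lower (-1.74 ± 0.23, adjusted p = 0.00137). HNRNPR had 148 and 251 against 542 and 540.4 (-1.49 ± 0.22, adjusted p = 0.00191). HNRNPA2B1, an abundant hnRNP that packages nascent RNA, had 335 and 596 against 1143 and 1158 (-1.37 ± 0.22, adjusted p = 0.00299). In each of these the lower NU7441 array was replicate 1, and both arrays lay under the controls. HNRNPM, a regulator of alternative exons in epithelial and mesenchymal cells, had 587 and 525 in NU7441 cells against 1101 and 1129 in control cells (-1.01 ± 0.10, adjusted p = 0.000444). HNRNPK, which binds runs of C, had 465 and 588 against 963 and 921 (-0.85 ± 0.13, adjusted p = 0.00206). The other falls were those of HNRNPA3 (-0.99), HNRNPDL (-0.84), HNRNPC (-0.82), HNRNPAB (-0.75) and HNRNPU (-0.30). Under median centring the HNRNPU value changed sign to 0.018 (adjusted p = 0.917).

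HNRNPL, which binds CA repeats, was the hnRNP gene that rose, with 1153 and 1209 in NU7441 cells against 925 and 896 in control cells (0.37 ± 0.08, adjusted p = 0.00892). HNRNPCL1 had the highest fold change of the family, 0.77 ± 0.35, but its NU7441 arrays were 190.1 and 482 and overlapped the controls (adjusted p = 0.116). The polypyrimidine tract proteins gave -0.052 ± 0.15 for PTBP1, 0.41 ± 0.21 for PTBP2, its neuronal paralog, and 0.25 ± 0.15 for PTBP3, with adjusted p-values between 0.147 and 0.808. For PTBP1 the 95% interval was -0.39 to 0.28 on the log2 scale.

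Close paralogs of the A and H groups took different places. HNRNPA1, the best-known repressor of exon inclusion, had 339 and 375 in NU7441 cells against 275 and 282 in control cells (0.36 ± 0.14, adjusted p = 0.0683), while HNRNPA2B1 fell. HNRNPA0 gave 0.39 ± 0.14 (adjusted p = 0.062) and HNRNPA3 -0.99 ± 0.19 (adjusted p = 0.00617). The A group thus ranged from -1.37 to 0.39, with the dim HNRNPA1L2 at -0.19. The gene table lists 75 pseudogenes named after HNRNPA1 and 17 after HNRNPA3, and their share in these signals was not tested. HNRNPH1 gave -0.26 ± 0.15 (adjusted p = 0.205) beside the larger fall of HNRNPH3.

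Of the 12 SR genes 6 fell and 1 rose in NU7441 cells. SRSF1, the founding SR protein and a known oncoprotein, had 309 and 379 in NU7441 cells against 603 and 611 in control cells (-0.83 ± 0.13, adjusted p = 0.00241). SRSF4 had 335 and 374 against 635 and 594 (-0.79 ± 0.12, adjusted p = 0.00219). SRSF7 had 227 and 276 against 409.5 and 479 (-0.83 ± 0.17, adjusted p = 0.00712). In all 3 genes both NU7441 arrays lay under both control arrays. TRA2A, a splicing activator that binds GAA repeats, had 139 and 269 in NU7441 cells against 359.9 and 394 in control cells (-0.96 ± 0.26, adjusted p = 0.0224). Its paralog TRA2B had 587 and 544 against 713 and 678 and missed the threshold (-0.30 ± 0.11, adjusted p = 0.0551). SRSF2, known for mutations in myeloid disease, fell by 0.40 on the log2 scale and the dim SRSF12 by 0.66, and both calls, like that of TRA2A, were lost under median centring.

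SRSF11, an SR-related protein, was the SR gene that rose, with 560.3 and 635 in NU7441 cells against 361 and 330.3 in control cells (0.79 ± 0.12, adjusted p = 0.00259). PRPF8 and SRSF11 were the members whose rise passed under all 16 alternative settings. SRSF8 had the next highest value, 0.22 ± 0.11 (adjusted p = 0.141). SRSF3, SRSF5 and SRSF6 gave -0.16, -0.13 and 0.15 and did not pass.

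RBM genes gave calls in both directions. RBM15, an adaptor that brings the m6A RNA methyltransferase to its targets, had 53.6 and 58.4 in NU7441 cells against 174 and 153 in control cells, 2.91-fold lower (-1.54 ± 0.20, adjusted p = 0.00124). RBM8A (Y14), a core protein of the exon junction complex, had 659 and 646 against 1058 and 1099 (-0.72 ± 0.088, adjusted p = 0.000988). RBM25, a regulator of BCL2L1 splicing, had 155 and 151 against 283 and 306 (-0.94 ± 0.15, adjusted p = 0.00263). These 3 genes and RBM17 fell without overlap between the groups. RBM34 fell by 0.92 on the log2 scale, RBM27 by 0.86, RBM48 by 0.85, RBM6 by 0.82, RBM38 by 0.81, RBM47 by 0.76 and RBM41 by 0.66, and of these the call for RBM34 alone held under median centring.

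The RBM genes that rose were RBM4B, RBM18, RBM14, RBM39, RBM5 and RBM12. RBM4B had 212 and 217 in NU7441 cells against 121 and 122 in control cells, 1.76-fold higher (0.82 ± 0.19, adjusted p = 0.0122). RBM39, a U2AF-related factor and the target of aryl sulfonamide degraders, had 700.0 and 555 against 394 and 406 (0.64 ± 0.13, adjusted p = 0.00784). It rose while both U2AF subunits fell. RBM5, a regulator of apoptosis gene splicing, had 299.6 and 289.9 in NU7441 cells against 192 and 193 in control cells (0.61 ± 0.14, adjusted p = 0.0125). The remaining 3 rose by 0.68 (RBM18), 0.67 (RBM14, a transcriptional coactivator and paraspeckle protein) and 0.58 (RBM12) on the log2 scale. Among the RBM genes below the threshold, RBM12B depended on its probeset, with -0.092 from the brighter and -1.23 from the other.

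Related genes with opposite values were picked out after the values were seen and are given as a description. RBM5 and RBM6 lie next to each other on chromosome 3 and encode related proteins. RBM6 had 77 and 98.9 in NU7441 cells against 167 and 142 in control cells (-0.82 ± 0.21), where RBM5 was higher. RBM4 and RBM4B are paralogs whose annotated spans overlap on chromosome 11, so their signals may not be fully separate. RBM4 had 69 and 127 in NU7441 cells against 149 and 170.4 in control cells (-0.77 ± 0.28, adjusted p = 0.0626), where RBM4B was higher. RBM15B, the paralog of RBM15 in the methylation complex, had 158 and 119 against 105 and 99.8 (0.42 ± 0.21, adjusted p = 0.141), where RBM15 was lower.

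**Figure D3:**
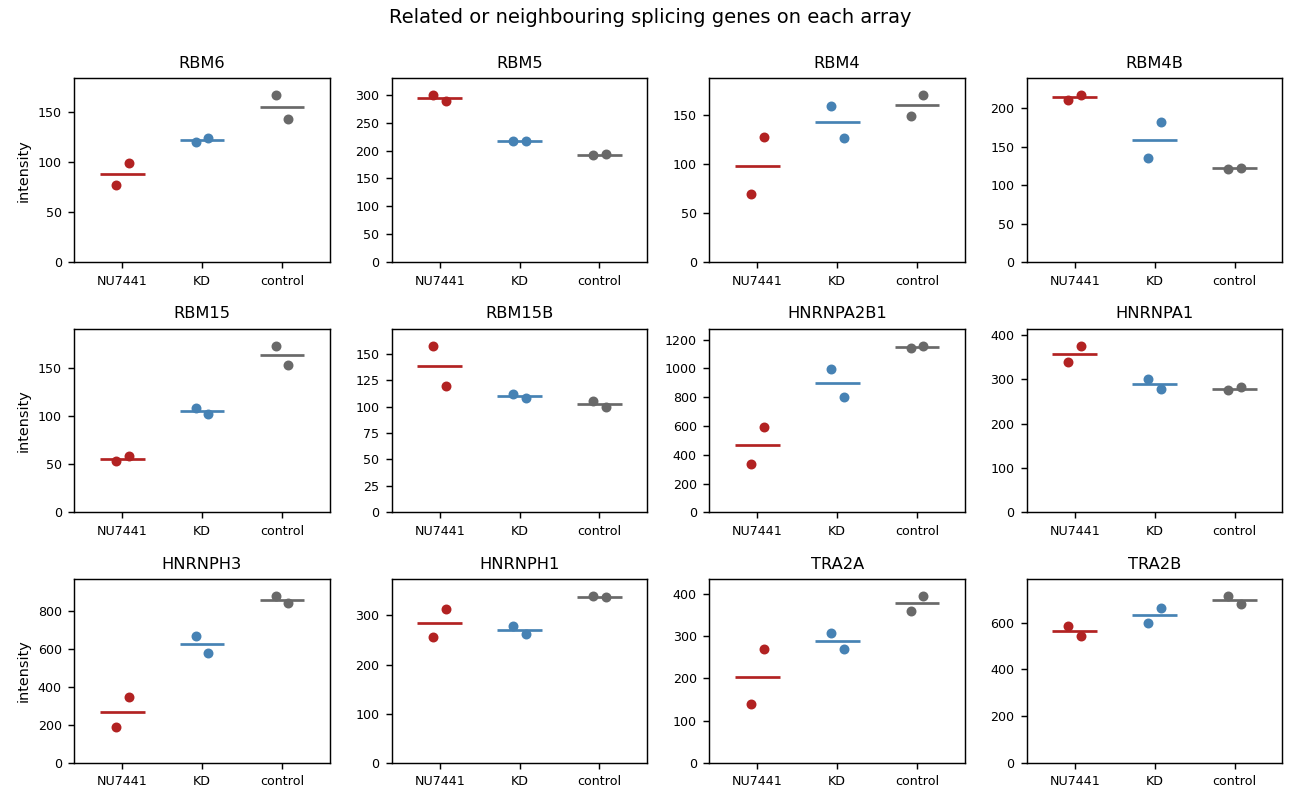
Deposited intensity (linear scale, from 0) of related or neighbouring genes on each array; KD is the DNA-PKcs knockdown, circles are arrays and bars are the means of 2. RBM6 and RBM15 lie below their controls in NU7441 cells while RBM5 and RBM4B lie above, and HNRNPA2B1 is at 335 and 596 in NU7441 cells, against 1143 and 1158 in control cells, beside 339 and 375 against 275 and 282 for HNRNPA1.

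Several measured features changed between the same groups. Markers of dividing cells all fell in NU7441 cells: 6 of 6 passed, and their summed intensity was 1045 and 1145 in NU7441 cells, against 2924 and 3032 in control cells. Prostate luminal markers, 7 of which were measured, summed to 4169 and 4462 in NU7441 cells against 3317 and 3152 in control cells, and KLK3 and KLK4 rose. The other 5 did not pass, from KLK2 at -0.44 ± 0.17 (adjusted p = 0.0667) to HOXB13 at 0.40 ± 0.17 (adjusted p = 0.105). Basal, neuroendocrine, stromal and leukocyte markers were measured for few genes and summed to between 78.6 and 148 per list in NU7441 cells, against 103 to 195 in control cells. Replicate 1 of NU7441 was the lower of its pair for 60 of 98 splicing genes and for 59.8% of all genes. The part of these differences in the splicing results was not tested. Members that fell had a median control intensity of 391, those that rose 259 and those past no threshold 147, beside 51.5 over protein-coding genes tested. Across the 98 genes Spearman's correlation of the fold change was -0.21 with the control level and -0.061 with gene span. Over 11911 protein-coding genes tested these correlations were -0.0012 and 0.017. The control arrays enter both the fold change and the control level, and all genes share the arrays, so the correlations are given as a description.

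The number of calls depended on scaling, and HNRNPU was the called member whose value changed sign. Quantile normalization kept 33 of the 37 falls and 11 of the 12 rises, beside 13.4% of all genes lower and 14.7% higher. Median centring kept 24 of the 37 falls and all 12 rises and gave 24 members on each side, beside 9.73% of all genes lower and 19.8% higher. Without control replicate 1 there were 20 falls and 3 rises (4.4% and 2.7% of all genes), and without control replicate 2 there were 17 falls and 3 rises (3.51% and 2.35%). The 17 falls that passed under all 16 alternatives were those of SNRPD1, SNRPA1, SNRPB2, U2AF1, U2SURP, HNRNPH3, HNRNPR, HNRNPA2B1, HNRNPM, HNRNPK, HNRNPDL, HNRNPAB, SRSF1, SRSF4, RBM15, RBM17 and RBM8A.

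**Figure D4:**
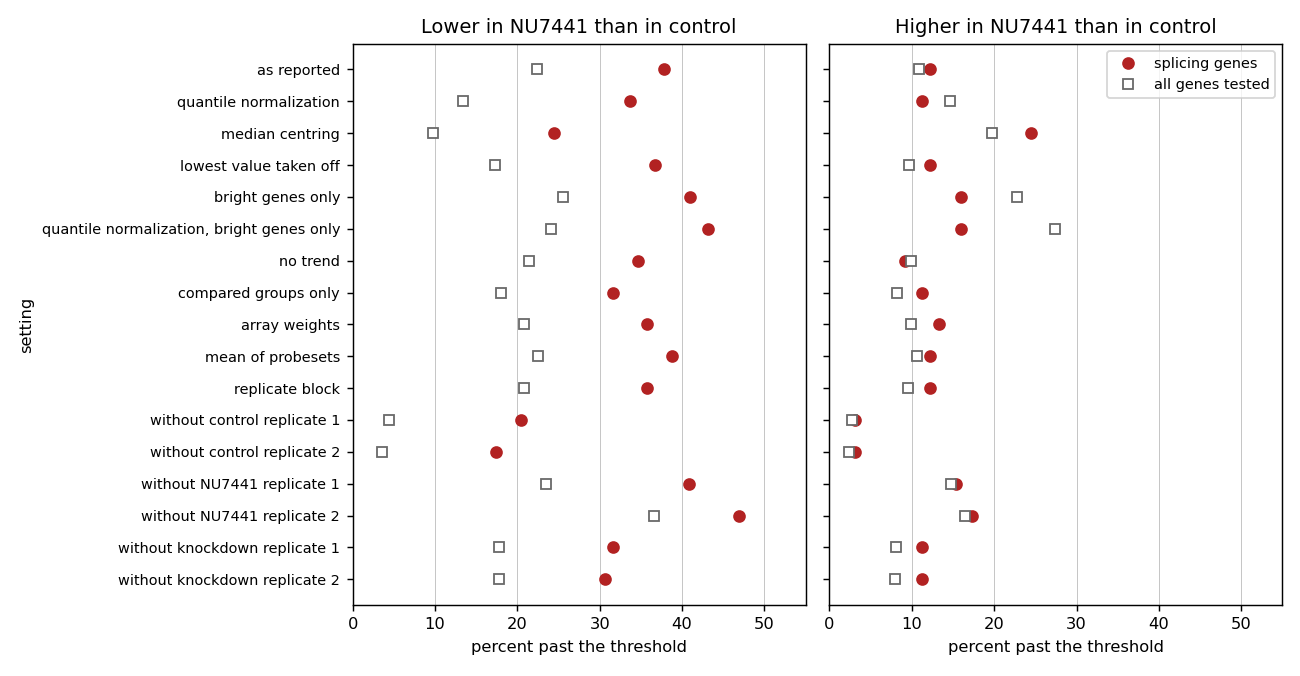
Percent of the splicing genes (filled circles) and of all genes tested (open squares) past the threshold in NU7441 against control, lower on the left and higher on the right, under the reported fit and 16 alternatives. The splicing genes lie to the right of all genes on the left panel in every setting, at 37.8% against 22.4% as reported, and close to or on either side of them on the right panel.

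Few splicing genes passed the threshold in DNA-PKcs knockdown against control cells. U2SURP and HNRNPK fell, 0 of the 98 genes rose, and 96 did not pass the threshold, in a comparison where 0.486% of all genes fell and 0.284% rose. U2SURP had 179 and 178 in knockdown cells against 387 and 395 in control cells, 2.19-fold lower (-1.13 ± 0.21, adjusted p = 0.0472). HNRNPK had 592 and 543 against 963 and 921, 1.66-fold lower (-0.73 ± 0.13, adjusted p = 0.0437). In both genes both knockdown arrays lay below both controls, as was so for 38.2% of all genes. Both calls are near the threshold and were lost when either control or either knockdown array was left out, with adjusted p-values between 0.239 and 0.435.

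Other genes stood just outside the threshold. SRSF4 had 402 and 388 in knockdown cells against 635 and 594 in control cells (-0.64 ± 0.12, adjusted p = 0.0501). RBM8A had 797 and 764 against 1058 and 1099 (-0.47 ± 0.088, adjusted p = 0.0501). HNRNPM had 815 and 768 against 1101 and 1129 (-0.50 ± 0.10, adjusted p = 0.0538). In these 3 genes both knockdown arrays lay below both controls, as they did for 38.2% of all genes. RBM17 gave -0.67 ± 0.15 (adjusted p = 0.0701), SNRPA1 -0.63 ± 0.15 and HNRNPC -0.70 ± 0.17 (adjusted p = 0.0791 for both), and PRPF4 -0.90 ± 0.24 (adjusted p = 0.0947). On the higher side SNRPD2, which rose in NU7441 cells, had 2026 and 1984 in knockdown cells against 1631 and 1739.8 in control cells (0.25 ± 0.063, adjusted p = 0.0868). At an unadjusted p under 0.05, 20 members were lower and 5 higher, beside 12.9% and 6.68% of all genes.

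The highest values of each family in knockdown against control were those of RBM18 (0.51 ± 0.15, adjusted p = 0.121), SNRPC (0.42 ± 0.13, adjusted p = 0.135), PTBP1 (0.35 ± 0.15, adjusted p = 0.237), SRSF8 (0.30 ± 0.11, adjusted p = 0.181), PRPF6 (0.27 ± 0.22, adjusted p = 0.521) and U2AF1L4 (0.21 ± 0.33, adjusted p = 0.766). The lowest of families not yet named were RBM28 (-0.81 ± 0.23, adjusted p = 0.107) and SRSF12 (-0.65 ± 0.18, adjusted p = 0.0976). Family medians lay between -0.28 for U2 factors and 0.034 for PRPF genes, beside -0.087 over all genes. Median centring turned the RBM median to 0.087, and quantile normalization turned the PRPF median to -0.0020. For the 98 genes together the median was -0.15. Both knockdown arrays were below both controls for 46 members and above them for 19, beside 38.2% and 23.4% of all genes.

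The knockdown count depended on which spread was used. When the NU7441 arrays were left out of the fit, 26 members fell and 4 rose, beside 12.3% and 6.89% of all genes, and with array weights, which gave NU7441 arrays 0.399, knockdown arrays 0.991 and control arrays 2.53, 22 fell and 5 rose, beside 12.0% and 6.0%. Leaving out NU7441 replicate 1 gave 26 falls and 4 rises (12.3% and 7.14% of all genes), and leaving out NU7441 replicate 2 gave 25 and 4 (12.1% and 7.16%). Markers of dividing cells passed for 0 of 6 genes in this comparison, with sums of 2457 and 2369 in knockdown cells against 2924 and 3032 in control cells.

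**Figure D5:**
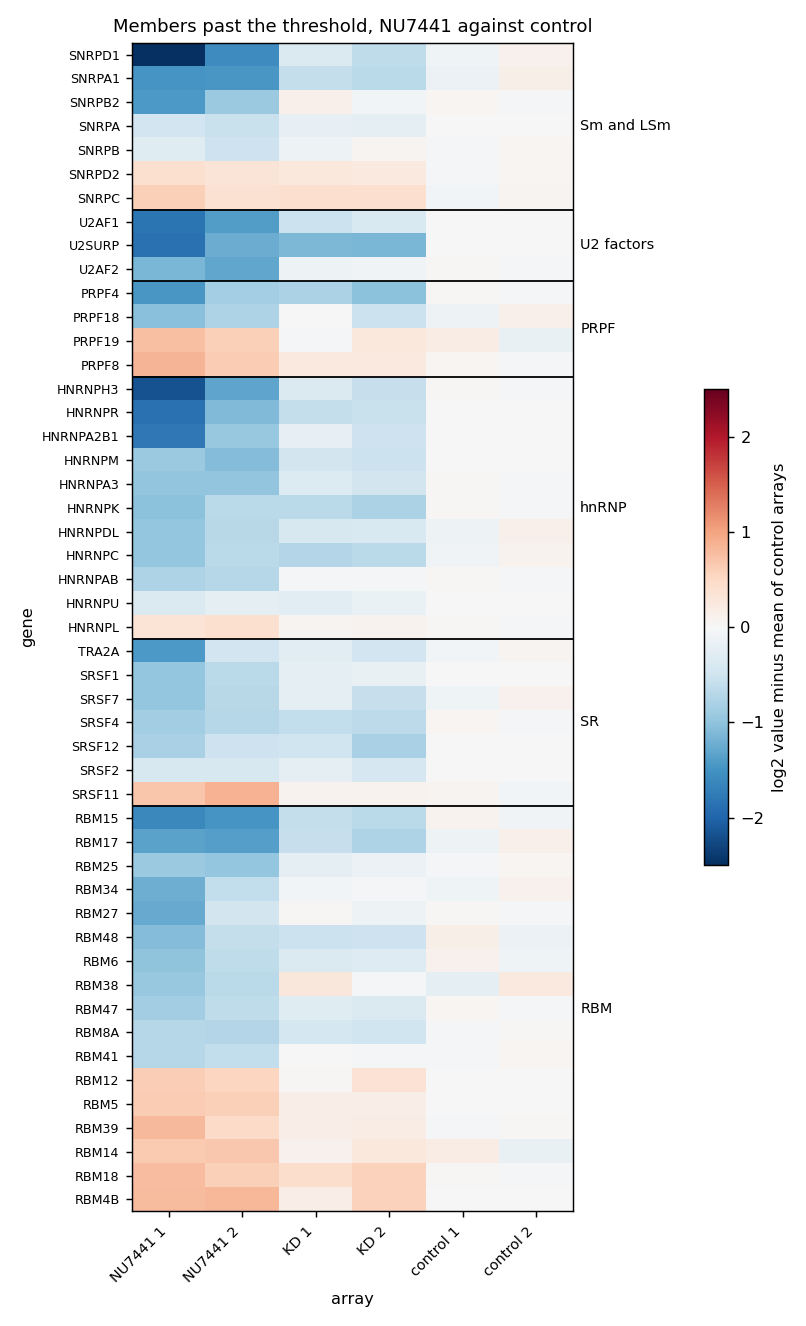
The 49 splicing genes past the threshold in NU7441 against control (rows, by family) on the 6 arrays (columns; KD is the DNA-PKcs knockdown), coloured by log2 value minus the mean of the control arrays. SNRPD1 and HNRNPH3 are the darkest on NU7441 replicate 1, and U2SURP, HNRNPK and SRSF4 stay low in the knockdown arrays.

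Knockdown and NU7441 cells were compared directly. In knockdown cells 15 of the 98 genes were higher than in NU7441 cells and 2 were lower, and 81 did not pass, beside 5.83% and 2.84% of all genes. All 15 were among the genes that fell in NU7441 against control, and the 2 were PRPF8 and SRSF11, which rose there, and these comparisons share the NU7441 arrays. SNRPD1 had 798 and 658 in knockdown cells against 174 and 343 in NU7441 cells (1.57 ± 0.26, adjusted p = 0.00999). SNRPB2 had 426 and 369.9 against 145 and 206 (1.20 ± 0.18, adjusted p = 0.0077). For SNRPB2 the knockdown arrays lay at the level of the controls, 405 and 376, with a knockdown change of 0.026 ± 0.18 (95% interval -0.38 to 0.44).

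U2AF1 had 223 and 248 in knockdown cells against 91.6 and 122 in NU7441 cells (1.15 ± 0.18, adjusted p = 0.00881), and U2AF2 had 126 and 129 against 62.4 and 55.6 (1.11 ± 0.19, adjusted p = 0.0115). HNRNPAB had 632 and 647 against 382 and 399 (0.71 ± 0.10, adjusted p = 0.00636) and a knockdown change of -0.039 ± 0.10 from control (95% interval -0.27 to 0.19). U2AF2, SNRPB2 and HNRNPAB are thus genes with low RNA in NU7441 cells and knockdown values near control. The others higher in knockdown cells were SNRPA1, HNRNPH3, HNRNPA2B1, HNRNPR, HNRNPM, SRSF1, RBM15, RBM17, RBM25 and RBM34, with log2 differences from 0.51 to 1.28. Most calls kept their sign between treatments. Of the 37 members that fell in NU7441 cells, 35 had a log2 fold change below 0 in knockdown against control. The 12 that rose all had values above 0 there. Both comparisons use the same control arrays, and 61 of all 98 members were below 0 in knockdown cells.

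U2SURP and HNRNPK, which fell in both comparisons with control, gave 0.41 ± 0.21 (adjusted p = 0.224, 95% interval -0.05 to 0.88) and 0.12 ± 0.13 (adjusted p = 0.586, 95% interval -0.17 to 0.40) between knockdown and NU7441 cells. SRSF11 had 365 and 368 in knockdown cells against 560.3 and 635 in NU7441 cells (-0.70 ± 0.12, adjusted p = 0.012), and PRPF8 had 526 and 519.9 against 799.6 and 684 (-0.50 ± 0.12, adjusted p = 0.0327). The control arrays gave 361 and 330.3 for SRSF11 and 458 and 425 for PRPF8, so the knockdown arrays of both genes lay above them. From control to knockdown SRSF11 changed by 0.086 (adjusted p = 0.741) and PRPF8 by 0.25 (adjusted p = 0.281), and neither passed. SNRPF gave the highest value, 1.63 ± 0.69, without passing (adjusted p = 0.161), and HNRNPCL1 the lowest, -0.93 ± 0.35 (adjusted p = 0.122).

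These counts changed when single arrays were left out. Without knockdown replicate 1, 0 members passed, where 0.027% of all genes were higher and 0.0203% lower, and without knockdown replicate 2, 0 members and 0 genes passed. Without NU7441 replicate 2, 37 members were higher and 12 lower (23.1% and 11.4% of all genes). Without control replicate 1, 7 were higher and 1 lower (1.78% and 1.03%), and without control replicate 2 the same numbers passed (1.78% and 1.06%). Inhibitor and siRNA also differed in time, 24 h against 96 h, and in vehicle and transfection, which cannot be told apart from the means of acting on DNA-PKcs. The markers of dividing cells were higher in knockdown than in NU7441 cells for 6 of 6 genes, and their part in the splicing differences was not tested.

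Other splicing genes, taken from lists by function and not by symbol, are given by counts. Of 101 measured genes 29 fell (28.7%) and 13 rose (12.9%) in NU7441 against control. Of all genes 22.4% fell and 10.8% rose, and of the genes brighter than the median 24.0% fell and 20.7% rose. In knockdown against control 2 of the listed genes fell, where 0.486% of all genes fell. Between knockdown and NU7441 cells 10 were higher and 3 lower in knockdown cells, beside 5.83% and 2.84% of all genes. Helicases and core spliceosome factors had 13 of 42 lower and 6 higher. CWC22, which links the spliceosome to the exon junction complex, had 17.9 and 27.3 in NU7441 cells against 76.4 and 85.1 in control cells (-1.87 ± 0.28, adjusted p = 0.00213), and DDX5, an RNA helicase and androgen receptor coactivator, had 1687 and 1688 against 945 and 857 (0.91 ± 0.082, adjusted p = 0.000404). Genes of snRNP assembly, by which the SMN complex places the Sm ring on the RNA, had 5 of 13 lower and 1 higher. STRAP, a part of the SMN complex, had 117 and 207 in NU7441 cells against 550.1 and 619 in control cells (-1.91 ± 0.23, adjusted p = 0.00101), while TGS1, which trimethylates the snRNA cap, gave 0.50 ± 0.15 (adjusted p = 0.0352) and rose.

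Kinases and phosphatases of SR proteins had 0 of 7 lower and 1 higher. The 1 was DYRK1A, a kinase of several SR proteins and named after its values were seen, with 245 and 207 in NU7441 cells against 161 and 149.9 in control cells (0.53 ± 0.18, adjusted p = 0.0434). CLK2, a kinase that phosphorylates SR proteins, had the highest value without passing (0.60 ± 0.24, adjusted p = 0.0755), and CLK1 gave -0.92 ± 0.41 without passing (adjusted p = 0.11). Exon junction and SR-like cofactors had 4 of 10 lower and 2 higher, from ACIN1 at -1.29 ± 0.21 (adjusted p = 0.00302) to CASC3, a core protein of the exon junction complex, at 0.89 ± 0.15 (adjusted p = 0.0036). Other regulators had 7 of 29 lower and 3 higher, one of which, the cold-inducible RNA-binding protein CIRBP, turned lower when its probesets were averaged, from DAZAP1 at -1.50 ± 0.23 (adjusted p = 0.00246) to NOVA1, a regulator best known from neurons, at 1.25 ± 0.25 (adjusted p = 0.00637). In knockdown cells the genes that fell were FUBP1 and LUC7L2, both with adjusted p-values near the threshold. Of all genes tested 72 fell in knockdown against control, but 4 with no trend in the fit or with the lowest value taken off. FUBP1 had 403 and 392 in knockdown cells against 663 and 618 in control cells (-0.69 ± 0.12, adjusted p = 0.0437). LUC7L2, a U1-associated protein, had 258 and 235 against 423 and 425 (-0.79 ± 0.13, adjusted p = 0.0437), and in NU7441 cells it gave -0.32 ± 0.13 (adjusted p = 0.0899).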

How the data were processed

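RNA of 6 C4-2 cultures, in 3 groups of 2, was hybridised to Human Gene 2.0 ST arrays (Affymetrix). The deposited table holds 1 linear intensity per probeset and array; how the authors summarised and normalized it, and on which genome build, is not given in the sources used here. Its 6 columns were tied to samples by identifier. Of 44629 probesets 15835 had 1 gene symbol in the platform annotation, and all of these matched the GRCh38.p14 gene table; 28794 unnamed ones were left out. The brightest probeset stood for each of 14812 genes. The log2 of the deposited intensities was fitted with limma 3.58.1 in R 4.3.3 (all 6 arrays in 1 model, 3 residual degrees of freedom, eBayes with trend), with p-values adjusted by Benjamini-Hochberg. The fit was also run on simulated data drawn with the same spread in all groups, so that run does not test the unequal spread described above. The number of arrays limits precision. Alternatives changed scaling, offset, filter, trend, samples, weights, probesets and block, and left out each array. Members and lists were chosen with earlier results of these data known. The naming rule took, per family, the 2 highest and 2 lowest genes of NU7441 against control, the extremes of the other comparisons, paralogs, and genes past the threshold under knockdown; other members named, chiefly those past the threshold, were chosen after their values were seen. Motifs were searched as exact letters on both strands.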

Additional observations from a re-analysis of the deposited data

How the results depend on the processing

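In NU7441 against control, the members lower and higher (37 and 12) became 24 and 24 under median centring, and without single arrays ranged from 17 to 46 and from 3 to 17. In knockdown against control (2 lower, 0 higher), the lower count became 7 with quantile normalization, 9 with that on bright genes, 26 with the compared groups only, 22 with array weights, 1 with median centring or the mean of probesets, and 0 with the lowest value taken off, no trend or the replicate block; the higher count became 1, 4 and 5 with quantile normalization on bright genes, the compared groups and array weights. Without single arrays these ranged from 0 to 26 and 0 to 4. In knockdown against NU7441 (15 higher, 2 lower), the higher count became 9 with no trend and 7 with the compared groups only; the lower count became 10 with median centring, 6 with bright genes, 7 with quantile normalization on bright genes, 0 with no trend, and 1 with the compared groups or array weights. Without single arrays these ranged from 0 to 37 and 0 to 12. Family medians for NU7441 against control moved to -1.30 (quantile, also on bright genes), -1.06 (centring) and -1.57 (lowest value off) for U2 factors; 0.44 for PRPF, 0.058 for hnRNP, -0.028 for SR and 0.20 for RBM under centring; -0.30 for SR on bright genes with and without quantile normalization; and 0.039 and 0.045 for RBM with quantile normalization on all and bright genes. For knockdown against control they moved under centring to -0.081 (snRNP), -0.14 (U2), 0.18 (PRPF), -0.10 (hnRNP), -0.095 (SR) and 0.087 (RBM), and for U2 to -0.31 (quantile, also on bright genes) and -0.30 (lowest value off). For knockdown against NU7441 they moved to 0.64 (quantile, also on bright genes), 0.59 (centring) and 0.96 (lowest value off) for U2; under centring to -0.25 (PRPF), -0.058 (SR) and -0.11 (RBM); and for SR to 0.16 on bright genes with and without quantile normalization. Without single arrays the medians of U2, PRPF, hnRNP, SR and RBM ranged from -1.48 to -1.27, 0.063 to 0.17, -0.38 to -0.23, -0.37 to -0.34 and -0.24 to -0.063 for NU7441 against control; those of snRNP, U2, PRPF, hnRNP, SR and RBM from -0.24 to -0.17, -0.33 to -0.23, -0.042 to 0.18, -0.28 to -0.13, -0.27 to -0.23 and -0.13 to -0.025 for knockdown against control; and those of U2, PRPF, SR and RBM from 0.52 to 0.93, -0.071 to 0.021, 0.077 to 0.17 and 0.050 to 0.15 for knockdown against NU7441. Arrays with the same replicate number did not deviate together over all genes (correlations of -0.005, -0.013 and -0.068). That check cannot show whether the replicates were handled as matched sets. With the replicate block the counts were 35 lower and 12 higher, 0 and 0, and 16 higher and 2 lower. HNRNPU, lower in NU7441 cells, turned to 0.018 under median centring (adjusted p = 0.917), and CIRBP, higher, turned to -0.85 with the mean of probesets (adjusted p = 0.0474); no other splicing or marker gene past the threshold changed sign under any of the 16 alternatives. The causes were not tested. With 2 arrays per group and an intensity floor of 16, small changes of dim genes cannot be resolved.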
